A study of Drosophila melanogaster with 5 samples.

Results

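Noncoding RNAs such as transfer, ribosomal and small nuclear RNAs are transcribed by dedicated machinery, trimmed from longer precursors and then chemically modified before they work in translation and splicing. The transcripts described here encode proteins of these steps in Drosophila melanogaster. There were 5 of them among the 16637 transcripts of the deposited table, selected by their FlyBase identifiers. They are FBtr0091786 (Tcs1 and Polr3K), FBtr0088817 (Pbp49 and CG42516), FBtr0085563 (CG7950 and Rpp14a), FBtr0083570 (Tgs1 and moi) and FBtr0074991 (Mettl5 and CG42374).

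NimbleGen single-colour expression arrays (Cy3) were hybridised with total RNA of whole larvae of the third instar, 1 sample to an array. The wild type was w1118, with 2 arrays that carry the replicate numbers 1 and 3. The mutant was dDPa3/dDPa4, larvae carrying both mutant dDP alleles in trans, with 3 arrays numbered 1 to 3, which the sample titles call a knockdown. DP dimerises with E2F transcription factors, which bind DNA as this pair, and neither the level of dDP nor a wild-type array numbered 2 was analysed here. Larvae of both genotypes were raised on regular medium without further treatment. The labels give neither the larvae per sample nor their sex or age in hours, nor whether replicates came from separate collections, so the spread behind each p-value may be technical.

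Each of the 5 transcripts carries 2 reading frames, and its single value cannot be divided between the genes. By the RefSeq synonyms, Polr3K, CG42516, Rpp14a, moi and CG42374 are read from the upstream frame and Tcs1, Pbp49, CG7950, Tgs1 and Mettl5 from the main one. RefSeq lists both genes of each pair over the same span. The name of the group covers part of the 10 genes only. Polr3K is a small subunit of RNA polymerase III, the enzyme that makes transfer RNAs and other short RNAs, and Tcs1 belongs to the synthesis of threonylcarbamoyladenosine, a modified base of transfer RNAs. Pbp49 is a subunit of the complex that activates small nuclear RNA promoters. Rpp14a is a subunit of ribonuclease P, which trims the leader of precursor transfer RNAs. Tgs1 adds the trimethylguanosine cap of small nuclear and nucleolar RNAs, and Mettl5 methylates an adenosine of the small ribosomal subunit's RNA. The gene moi encodes a protein of the telomere cap. The RefSeq synonym of the CG7950 frame names CHCHD4, known in humans as an import factor of mitochondria, and no role is given here to CG42374 or CG42516.

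All 5 transcripts had a higher mean value in dDP mutant larvae than in the wild type, by 0.18 to 0.75 on the log2 scale, and none passed the test over all transcripts. The transcript of CG7950 and Rpp14a and that of Tgs1 and moi stood apart most clearly, at about 1.68 and 1.40 times the wild-type value. The median difference of the 5 was 0.36, against 0.01 for all 16637 transcripts. For all 5, which were grouped with earlier results of these arrays known, every mutant array lay above both wild-type arrays. The gap was only 0.03 for Tcs1/Polr3K and for Mettl5/CG42374. Over the whole table every mutant array lay above both wild-type arrays for 21.6% of transcripts and below both for 18.1%. The mutant mean was higher for 50.9% of the table. In whole larvae, a larger share of cells that make a transcript and more of it per cell cannot be told apart.

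Genotype was the only term of the limma fit, and p-values were adjusted by Benjamini and Hochberg's method over the whole table, with a threshold of 0.05. Of the 5 transcripts the fit called 0, where 1.42% of the table was called as higher in the mutant. At an unadjusted limma p below 0.05 there were 2 of the 5, both higher in the mutant, against 18.1% of the table in either direction. The smallest rise called anywhere in the table was 1.10 on the log2 scale, which is larger than any difference among the 5. Values are given as RMA values, taken to be log2, and a difference is the mutant mean minus the wild-type mean.

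**Figure D1:**
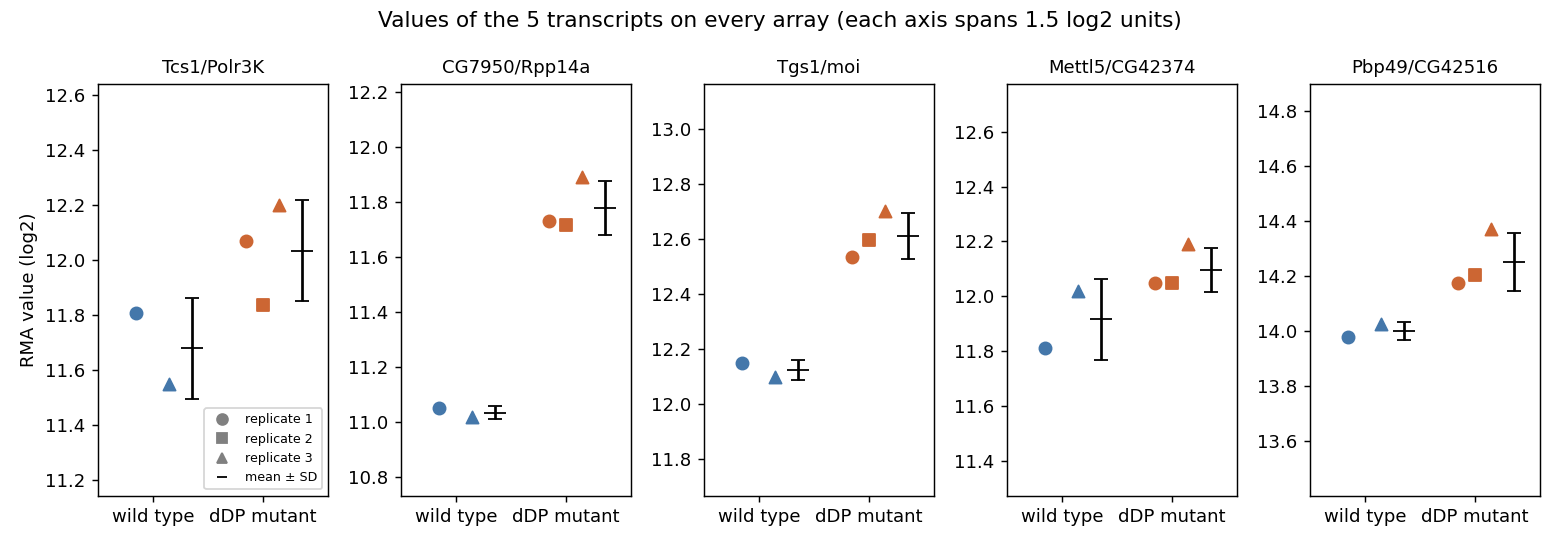
RMA values (log2) of the 5 transcripts on each array, with wild type in blue, dDP mutant in orange, a marker shape for each replicate number, and the mean ± SD beside the points (2 wild-type and 3 mutant arrays). Every mutant point lies above both wild-type points in each panel, by 0.66 for CG7950/Rpp14a and by 0.03 for Tcs1/Polr3K and Mettl5/CG42374.

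Among the genes of transcription, the transcript of Polr3K and Tcs1 had values of 11.81 and 11.55 in wild-type replicates 1 and 3. In mutant replicates 1, 2 and 3 they were 12.07, 11.83 and 12.20. Mutant replicate 2 stood only 0.03 above wild-type replicate 1, while the wild-type arrays were 0.26 apart and the mutant arrays spanned 0.37. The means were 11.7 ± 0.183 (SD, n = 2) and 12.0 ± 0.185 (SD, n = 3), a difference of 0.36 (standard error 0.20, 95% interval -0.14 to 0.85; limma adjusted p = 0.431). The gap between the genotypes was thus smaller than the spread within either of them.

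The transcript of Pbp49 and CG42516 read 13.98 and 14.02 on the wild-type arrays. On mutant replicates 1, 2 and 3 it read 14.17, 14.21 and 14.37. Here the wild-type arrays were close together, 0.05 apart, and the lowest mutant array stood 0.15 above the higher of them, which is less than the mutant range of 0.20. The means were 14.0 ± 0.0327 (SD, n = 2) and 14.3 ± 0.106 (SD, n = 3), and the difference was 0.25 with a standard error of 0.16 (95% interval -0.16 to 0.66; limma adjusted p = 0.508). Its interval includes 0 and, at its upper end, a ratio of 1.58.

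For processing, the transcript of Rpp14a and CG7950 gave 11.05 and 11.02 in the wild type. Mutant replicates 1, 2 and 3 gave 11.73, 11.72 and 11.89. Both genotypes were tight: the wild-type arrays were 0.03 apart and the mutant arrays spanned 0.18, while the gap between the genotypes was 0.66. The means of 11.0 ± 0.0242 (SD, n = 2) and 11.8 ± 0.0983 (SD, n = 3) differed by 0.75 with a standard error of 0.16 (95% interval 0.34 to 1.15; limma adjusted p = 0.111). The unadjusted p was 0.00467, where the largest unadjusted p that passed the adjustment was 0.000814. As a ratio, the interval runs from 1.27 to 2.22. A larger difference in the same direction was found for 8.62% of all transcripts, and a smaller p, in either direction, for 4.18%.

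Among the genes of RNA modification, the transcript of Tgs1 and moi had wild-type values of 12.15 and 12.10. The mutant values were 12.54, 12.60 and 12.70 for replicates 1, 2 and 3. The lowest mutant array stood 0.39 above the higher wild-type array, more than the 0.05 between the wild-type arrays and the mutant range of 0.16. The means were 12.1 ± 0.0365 (SD, n = 2) and 12.6 ± 0.0832 (SD, n = 3), a difference of 0.49 (standard error 0.16, 95% interval 0.09 to 0.89; limma adjusted p = 0.208). The unadjusted p was 0.0244, and 11.8% of all transcripts had a smaller one.

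The transcript of Mettl5 and CG42374 read 11.81 and 12.02 on wild-type replicates 1 and 3. Mutant replicates 1 and 2 carried the identical value of 12.05, and replicate 3 read 12.19. A value equal in every deposited digit on these arrays occurred for 38 transcripts, or 0.228% of the table. The lowest mutant arrays stood 0.03 above wild-type replicate 3, where the wild-type arrays were 0.21 apart. With means of 11.9 ± 0.149 (SD, n = 2) and 12.1 ± 0.0801 (SD, n = 3), the difference was 0.18 with a standard error of 0.17 (95% interval -0.24 to 0.60; limma adjusted p = 0.645). It was the smallest of the 5 and the one that moved most, in proportion, with a single array: without wild-type replicate 1 it was 0.08, and without wild-type replicate 3 it was 0.29.

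The transcripts of Rpp14a/CG7950 and Tgs1/moi were therefore the only ones of the 5 whose genotypes were separated by more than the range within each genotype. That criterion was chosen after the values were seen, and 5.94% of the table met it in the same direction. For the other 3 the 95% interval of the difference included 0. All 5 intervals ended at or below a log2 difference of 1.15, a ratio of 2.22.

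Within genotypes the 5 transcripts varied less than most. The residual SD was 0.0711 for Tgs1/moi, 0.0815 for CG7950/Rpp14a, 0.0885 for Pbp49/CG42516, 0.108 for Mettl5/CG42374 and 0.184 for Tcs1/Polr3K, against a median of 0.278 over the table. These stood between the percentiles 5.0 and 30.4 of all transcripts. The moderated standard errors of the 5 lay between 0.16 and 0.20 because limma draws each transcript's variance towards a common value.

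**Figure D2:**
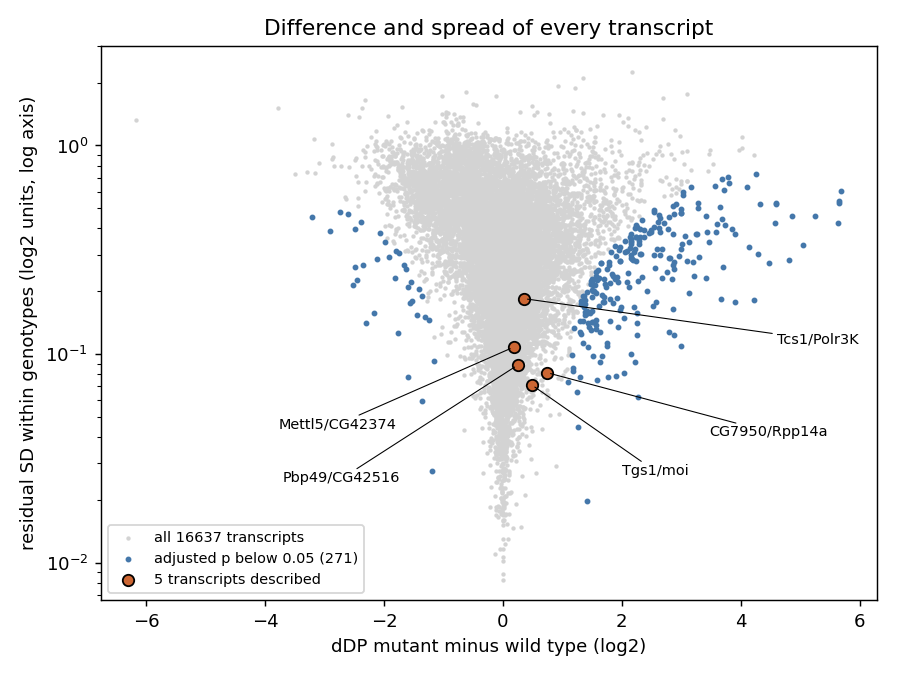
Genotype difference (log2, horizontal) against the residual SD within genotypes (log2 units, logarithmic vertical axis) for all 16637 transcripts in grey, the 271 called ones in blue and the 5 described here in orange. The 5 lie to the right of 0 with a small residual SD, at differences below those of the called rises, which begin at 1.10.

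Within the arrays, the rank of each transcript's signal moved with its value. Ranks describe signal and not abundance, since signals also depend on the probes. CG7950/Rpp14a stood at the percentiles 41.5 and 40.5 of the wild-type arrays and between 50.8 and 54.1 on the mutant arrays. Tgs1/moi moved from 58.7 and 57.6 to between 64.6 and 68.3. The percentile ranges of the genotypes did not overlap for Tcs1/Polr3K (48.3 to 52.7 and 53.2 to 58.9) or for Pbp49/CG42516 (up to 91.8 and from 93.1 upwards). Mettl5/CG42374 was the exception, because mutant replicate 1, at the percentile 56.0, ranked just below wild-type replicate 3 at 56.2. By value, every mutant array lay above both wild-type arrays for 21.6% of the table. The share by percentile was not computed, so the separation of these ranks has no background of its own.

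Mutant replicate 3 had the highest value of the 5 arrays for each of the 5 transcripts, and the same array was highest for 29.7% of the table. Where every mutant array lies above both wild-type arrays, the highest is always a mutant array. The share among such transcripts alone was not computed. For the 5 transcripts, values were also averaged on each array. The mean of the 5 transcripts was 12.67 on mutant replicate 3, 12.51 on mutant replicate 1 and 12.48 on mutant replicate 2. It was 12.16 and 12.14 on wild-type replicates 1 and 3. The wild-type arrays differed little in this mean, where single differences offset each other. Replicate 1 minus replicate 3 was 0.26 for Tcs1/Polr3K and -0.21 for Mettl5/CG42374. Every mutant array was above them in this mean, which follows from the same order in each of the 5 transcripts and adds nothing to it. Between wild-type replicates the order was not shared. Replicate 1 was the higher for Tcs1/Polr3K, CG7950/Rpp14a and Tgs1/moi, and replicate 3 for Mettl5/CG42374 and Pbp49/CG42516. Without mutant replicate 3 the 5 differences lay between 0.13 and 0.69, in the same order of size.

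Whether the 5 differed from one another in their genotype difference was compared over all 10 pairs, from the difference of their values on each array. The difference of CG7950/Rpp14a exceeded that of Mettl5/CG42374 by 0.57, that of Pbp49/CG42516 by 0.50, that of Tcs1/Polr3K by 0.39 and that of Tgs1/moi by 0.26. In these 4 pairs, and in Tgs1/moi against Mettl5/CG42374 and Pbp49/CG42516 at 0.31 and 0.24, the mutant and wild-type arrays did not overlap. These pairs share transcripts, so they are not separate results, and the share among all transcript pairs of the table was not computed. The exact permutation p was 0.1 for these 6 pairs, which is the smallest that 10 splits of the arrays can give, so no pair could pass this test (two-sided; Benjamini-Hochberg adjusted p = 0.167 over the 10 pairs). The other 4 pairs differed by 0.07 to 0.17 with overlapping arrays (exact permutation p of 0.5 to 0.6). With 10 splits this permutation test cannot reach 0.05, whatever the size of a difference between pairs.

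The profiles over the 5 arrays were compared with those of the other 39 transcripts that had a gene name, as the root-mean-square difference of values centred on each transcript's own mean. This is a description over 5 arrays and carries no test. Values were not scaled, so transcripts with small genotype differences and little spread lie near each other whatever their pattern. CG7950/Rpp14a lay nearest to the transcript of NaPi-III, a phosphate transporter, at 0.059, and next to SuUR, a chromatin protein of polyploid larval tissues, at 0.087, where 11 and 46 transcripts of the whole table were nearer. Tgs1/moi was nearest to SuUR, at 0.10, with 212 nearer in the table. The nearest named transcript to Tcs1/Polr3K was that of the deacetylase HDAC3, at 0.12, with 645 nearer. For Mettl5/CG42374 it was that of sle, a gene needed for the organisation of the nucleolus, at 0.010, with 0 nearer. For Pbp49/CG42516 it was that of Mocs2A and Mocs2B, which encode the subunits of molybdopterin synthase, at 0.047, with 53 nearer. Named transcripts are few in the table, so the nearest named profile is mostly not the nearest profile. Among the 5 themselves, the closest profiles were those of Mettl5/CG42374 and Pbp49/CG42516, at 0.065, which also had the smallest genotype differences (0.18 and 0.25). The least alike were those of CG7950/Rpp14a and Mettl5/CG42374, at 0.29, which had the largest and the smallest difference (0.75 and 0.18).

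Most genes that act beside these could not be named in the table. Some listed symbols were absent from the RefSeq names and could not have been found. RefSeq held from 5 of the 8 for threonylcarbamoylation to 6 of the 6 for telomere capping. Of 88 genes in 7 lists (RNA polymerase III, small nuclear RNA activation and processing, ribonucleases P and MRP, cap hypermethylation, threonylcarbamoylation, RNA methylation and telomere capping), 8 had a transcript with a name, and 7 of these belong to the 5 transcripts. The remaining gene was Tcs6, a gene of transfer RNA threonylcarbamoylation, as Tcs1 is, which shares its transcript with PIG-P, a gene of glycolipid anchor synthesis. That transcript read 12.28 on both wild-type arrays and 12.88, 13.05 and 13.81 on mutant replicates 1, 2 and 3, again with replicate 3 the highest. It differed by 0.97 with a standard error of 0.31 (95% interval 0.17 to 1.76; limma adjusted p = 0.212), so 0 of the 8 genes passed in either direction. None of the 41 larval tissue markers had a named transcript, so the makeup of the larvae could not be checked.

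Among the other 39 named transcripts, 24 had a higher mutant mean, with a median difference of 0.12. For 11 every mutant array lay above both wild-type arrays, and for 4 every one lay below. Over the whole table these shares were 50.9%, 21.6% and 18.1%. The median signal percentile of the 39 was 79.0, so they are brighter than most of the table. Of these 39, 23 are also shared by several genes, of which 6 had every mutant array above both wild-type arrays and 3 had every one below, and their median difference was 0.12. Limma called 0 of the 39, where 1.42% of the table was called as higher in the mutant. At an unadjusted limma p below 0.05 there were 5, against 18.1% of the table in either direction. The share of the 5 with separated genotypes was not tested against these, since the 5 were grouped with earlier results of the same arrays known.

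**Figure D3:**
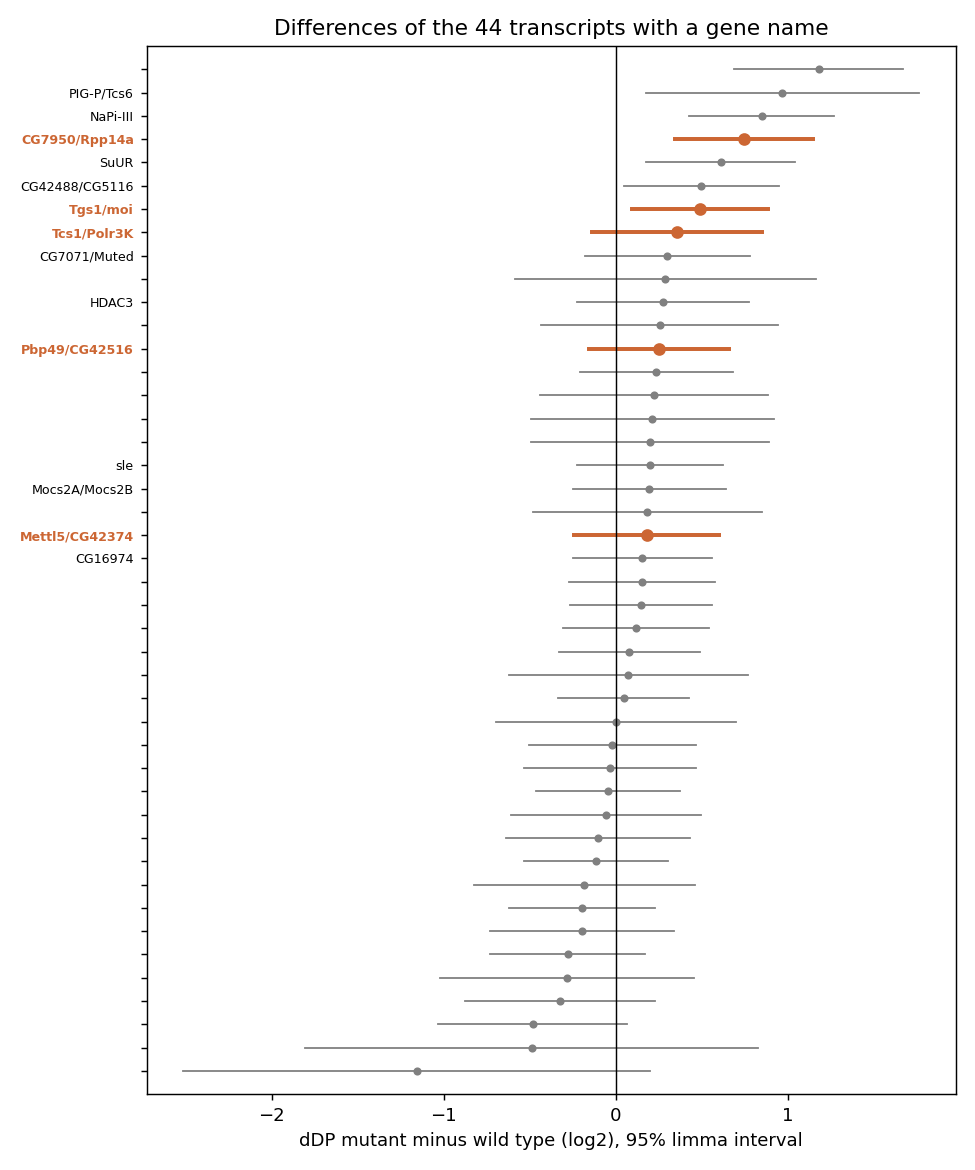
Genotype difference (log2, points) with its 95% limma interval (lines) for the 44 transcripts with a gene name, ordered by size, with the 5 described here in orange and names given only for these, for their nearest named profiles and for the transcript of Tcs6. CG7950/Rpp14a and Tgs1/moi are the orange intervals that lie wholly above 0 with all 5 arrays and genotype as the only term.

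The differences were recomputed under other normalisations, other variance models and with each array left out. In all 64 refits of the 5 transcripts the difference stayed above 0. Only the other normalisations could have changed that sign, since every mutant array already lay above both wild-type arrays. CG7950/Rpp14a ranged from 0.67 to 0.78 and Tgs1/moi from 0.43 to 0.53. The 95% interval of Tgs1/moi included 0 with the replicate number as a block (-0.10 to 1.09), without wild-type replicate 1 (-0.16 to 1.19) or 3 (-0.21 to 1.14) and without mutant replicate 2 (-0.03 to 1.02). The block and the omission of mutant replicate 2 gave the same Tgs1/moi difference of 0.50, since no wild-type array is numbered 2. Tcs1/Polr3K ranged from 0.23 to 0.48, Pbp49/CG42516 from 0.19 to 0.29 and Mettl5/CG42374 from 0.08 to 0.29. The transcript of CG7950 and Rpp14a passed the test in 1 of these fits, with array weights, at a difference of 0.71 (limma adjusted p = 0.0481, in a range over all alternatives up to 0.652). That fit gave mutant replicate 2 a weight of 1.80 and mutant replicates 1 and 3 weights of 0.55 and 0.36. It called 683 of the 16637 transcripts of the table, against 271 in the fit as reported.

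**Figure D4:**
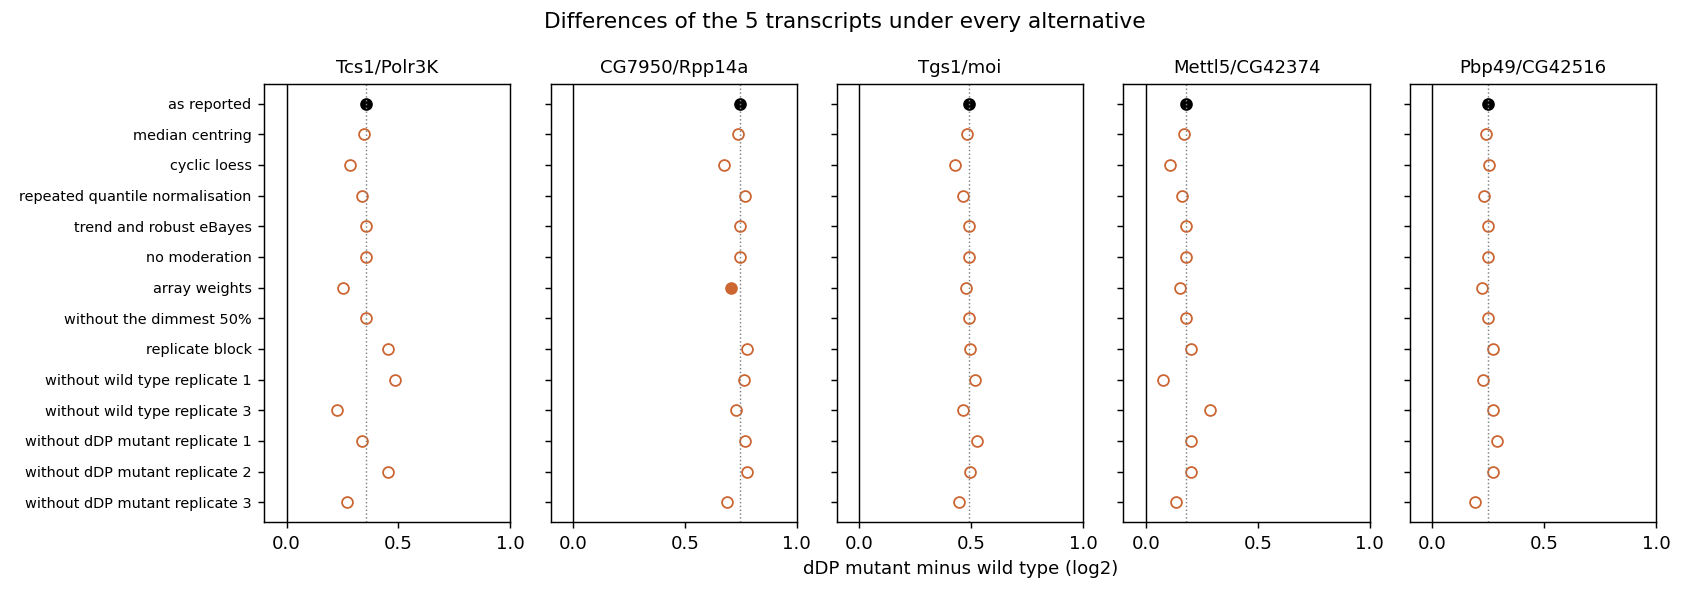
Genotype difference (log2) of the 5 transcripts as reported (black) and under each alternative (orange), where a filled orange point has a limma adjusted p below 0.05. All points lie above 0, which only the other normalisations could have changed, since every mutant array lay above both wild-type arrays. The only filled orange point is CG7950/Rpp14a with array weights, at 0.71, in a fit that called 683 of the 16637 transcripts.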

How the data were processed

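The deposited table gives 1 log2 RMA value per transcript and array. Per the submitters' processing notes, the authors made it with oligo, an R package, and RMA. The sources used here give no versions, probe annotation, genome build or log base, the last taken as 2 because RMA writes log2 and values ran from 4.98 to 15.73. RMA equalises arrays (medians 11.64 to 11.69), which would hide a change common to most transcripts. Arrays correlated at 0.957 to 0.986 within and 0.927 to 0.965 between genotypes.

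Gene names came from FBtr synonyms in the RefSeq table of Drosophila melanogaster Release 6, which named 44 transcripts. No coordinates are printed and no sequences were used here.

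All 16637 transcripts were fitted with limma 3.58.1 (R 4.3.3; lmFit, eBayes, genotype only, no filter; 3 residual and 2.32 prior degrees of freedom), after a test on simulated data. The number of arrays limits the precision. Named genes are the 5 transcripts, genes of the pathway lists, and the 3 nearest named profiles of each. Members and lists were chosen with earlier results of these data known. Figures used matplotlib 3.10.9.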

Additional observations from a re-analysis of the deposited data

How the results depend on the processing

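Of 64 refits of the 5 transcripts, 63 left the adjusted p on the same side of 0.05. In settings that called 0 transcripts of the whole table, as without moderation, none of the 5 could change side. The exception was CG7950/Rpp14a with array weights, at 0.71 (limma adjusted p = 0.0481). CG7950/Rpp14a was not refitted without the dimmest 50% of transcripts, where it fell below the limit. Leaving out an array gave 0.23 to 0.48 for Tcs1/Polr3K, 0.69 to 0.78 for CG7950/Rpp14a, 0.44 to 0.53 for Tgs1/moi, 0.08 to 0.29 for Mettl5/CG42374 and 0.19 to 0.29 for Pbp49/CG42516. In all, 271 transcripts of the series were called. The count was 225 to 287 under median centring, cyclic loess, repeated quantile normalisation and trend with robust settings. It was 0 without moderation (2035 at an unadjusted limma p below 0.05), 683 with array weights, 53 without the dimmest 50% and 617 at a threshold of 0.1. With each array left out in turn the calls numbered 0 to 118 (1219 to 3026 at an unadjusted p below 0.05), and 118 only without mutant replicate 1. A lone wild-type array was assumed to vary like the mutant arrays. With the replicate number as a block, on 1 residual degree of freedom, the count was 858 (331 higher, 527 lower). The differences were 0.45, 0.78, 0.50, 0.20 and 0.27 for Tcs1/Polr3K, CG7950/Rpp14a, Tgs1/moi, Mettl5/CG42374 and Pbp49/CG42516, with no change of call. No wild-type array is numbered 2, so mutant replicate 2 added nothing to these differences, which equal those without that array. Same-numbered arrays share only a number, and their deviations from the genotype means correlated at 0.52 and 0.21 across transcripts, while those of mutant replicate 2 correlated at 0.40 with wild-type replicate 3, and the remaining pairs lay between -0.52 and -0.21. With 2 wild-type arrays these deviations mirror each other and single out no pairing. The permutation test of the 10 pairs gave 0 pairs past 0.05 under cyclic loess and repeated quantile normalisation too, both chosen after seeing the data, as it must with 10 splits. The cause of these changes was not tested. No background signals were used, so no floor could be set.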
